A study of Mus musculus with 28 samples.

Results

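In a mouse Pre-B cell line that is converted to macrophages, 116 of the 55450 genes in the RNA-seq table had their highest level 12h after induction and a lower level again at 48h. They were chosen by the RNA-seq values themselves: the mean level at 12h had to be at least 2, at least 2 times the 0h mean plus 0.5, and at least 1.5 times the 1h and the 48h mean. Another 41 genes met these values and were left out because their symbols begin with Gm and a digit, Mir, Sno, Rn or mt-. This is a filter on letters and not on the type of gene. Of the 116 members, 113 are protein coding, 2 are 5S ribosomal RNA entries and 1 is a pseudogene. The 12h peak is therefore what the genes were chosen for, and their 12h values are described here without a test. For comparison, 473 genes met the same conditions on 0h and 1h but kept a 48h mean above the limit. No upper limit was set at 48h, so these kept-rise genes include some that rose further. Csf1r, for example, had a mean of 8.43 at 12h and 26.5 at 48h.

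All libraries came from C10, a single line of mouse Pre-B cells derived from HAFTL that carries rat C/EBPα fused to the hormone-binding domain of the estrogen receptor. The fusion protein is held in the cytoplasm until β-estradiol is added, so every group, 0h included, carries the transgene. Cells were uninduced (0h) or kept for 1h, 12h or 48h in 100 nM β-estradiol with IL-3 and CSF-1, and 3 rRNA-depleted RNA-seq libraries were made at each time. Promoter Capture Hi-C, which lists the restriction fragments that contact captured promoters, gave 1 list for each of the 4 times, merged from 2 replicates. The labels call the RNA libraries biological replicates without naming separate cultures, so a p-value measures the spread between these libraries, which may be technical.

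C/EBPα is a transcription factor of the granulocyte and monocyte lineage, and forcing it into B cell precursors shuts down B cell genes and starts myeloid ones. Early myeloid cells make granule proteins, which are synthesized on the endoplasmic reticulum (ER), folded there by chaperones and disulfide isomerases, and stored for release. As the cells become adherent and motile they also build an actin cortex with filamin, myosin and tropomyosin, and they take up more glucose. The 116 members were sorted by hand into 9 roles and a remainder after they had been seen.

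Levels are given as scaled TPM, that is, the deposited TPM, an abundance corrected for transcript length, divided by a median-of-ratios size factor for each library. The 20 most abundant genes, among them the mitochondrial ribosomal RNAs and Rn7sk, held 86.8% to 94.2% of all TPM depending on the library, and the size factors were 0.84 to 1.03 at 0h, 1.33 to 1.56 at 1h, 1.07 to 1.35 at 12h and 0.627 to 0.752 at 48h. TPM can be compared between genes but hold no depth, and in bulk RNA fewer cells of a type and less RNA per cell cannot be told apart. The labelled conversion was visible in the marker genes. At 48h 14 of 15 Pre-B markers were lower than at 0h, against 17.8% of all genes tested. Of 15 macrophage markers on the list 12 were tested, and 11 were higher at 48h than at 0h, against 20.1%. Mertk and Marco were at 0 in all libraries, and Adgre1 had a 48h mean of 0.129 scaled TPM. These were not tested. Between 0h and 12h the summed Pre-B markers went from 377 to 400 down to 67.2 to 70.0 scaled TPM, and the macrophage markers from 10.9 to 13.9 up to 224 to 251. Most of the macrophage sum at 12h was Lyz2, with a mean of 175, and Cd14, with 42.5. Csf1r rose from a mean of 0.304 to 8.43, Cd68 stayed at 2.51 and Ctss went from 7.24 to 5.14. The part of these markers in the members' levels was not tested. T and NK cell markers summed to at most 0.125 scaled TPM in any library, and 7 of those 10 genes, Cd3e, Cd4 and Nkg7 among them, were at 0 in all 12.

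The 116 members together took 686, 703 and 757 scaled TPM in the 0h libraries and 973, 909 and 989 at 1h. At 12h they took 2284, 2450 and 2554, and at 48h 1025, 1017 and 1265. The third 48h library lay above the other two, and its 20 most abundant genes held 90.5% of the TPM against 94.2% and 93.4%. The lowest mean was at 0h for 82 members, at 1h for 24 and at 48h for 10, and the second highest was at 48h for 80, at 1h for 32 and at 0h for 4. The 2 ribosomal RNA entries were at 0 at 0h, 1h and 48h alike, and these ties were counted under 0h both times. The median ratio of the 12h mean to the 0h mean was 3.56 (110 members with a 0h mean above 0), to the 1h mean 2.64 (114 members) and to the 48h mean 1.96 (114 members). For 100 members all 3 of the 12h libraries lay above the other 9, as for 450 (2.78%) of the 16212 genes tested, and since the rule used these values nothing is read from that count.

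**Figure D1:**
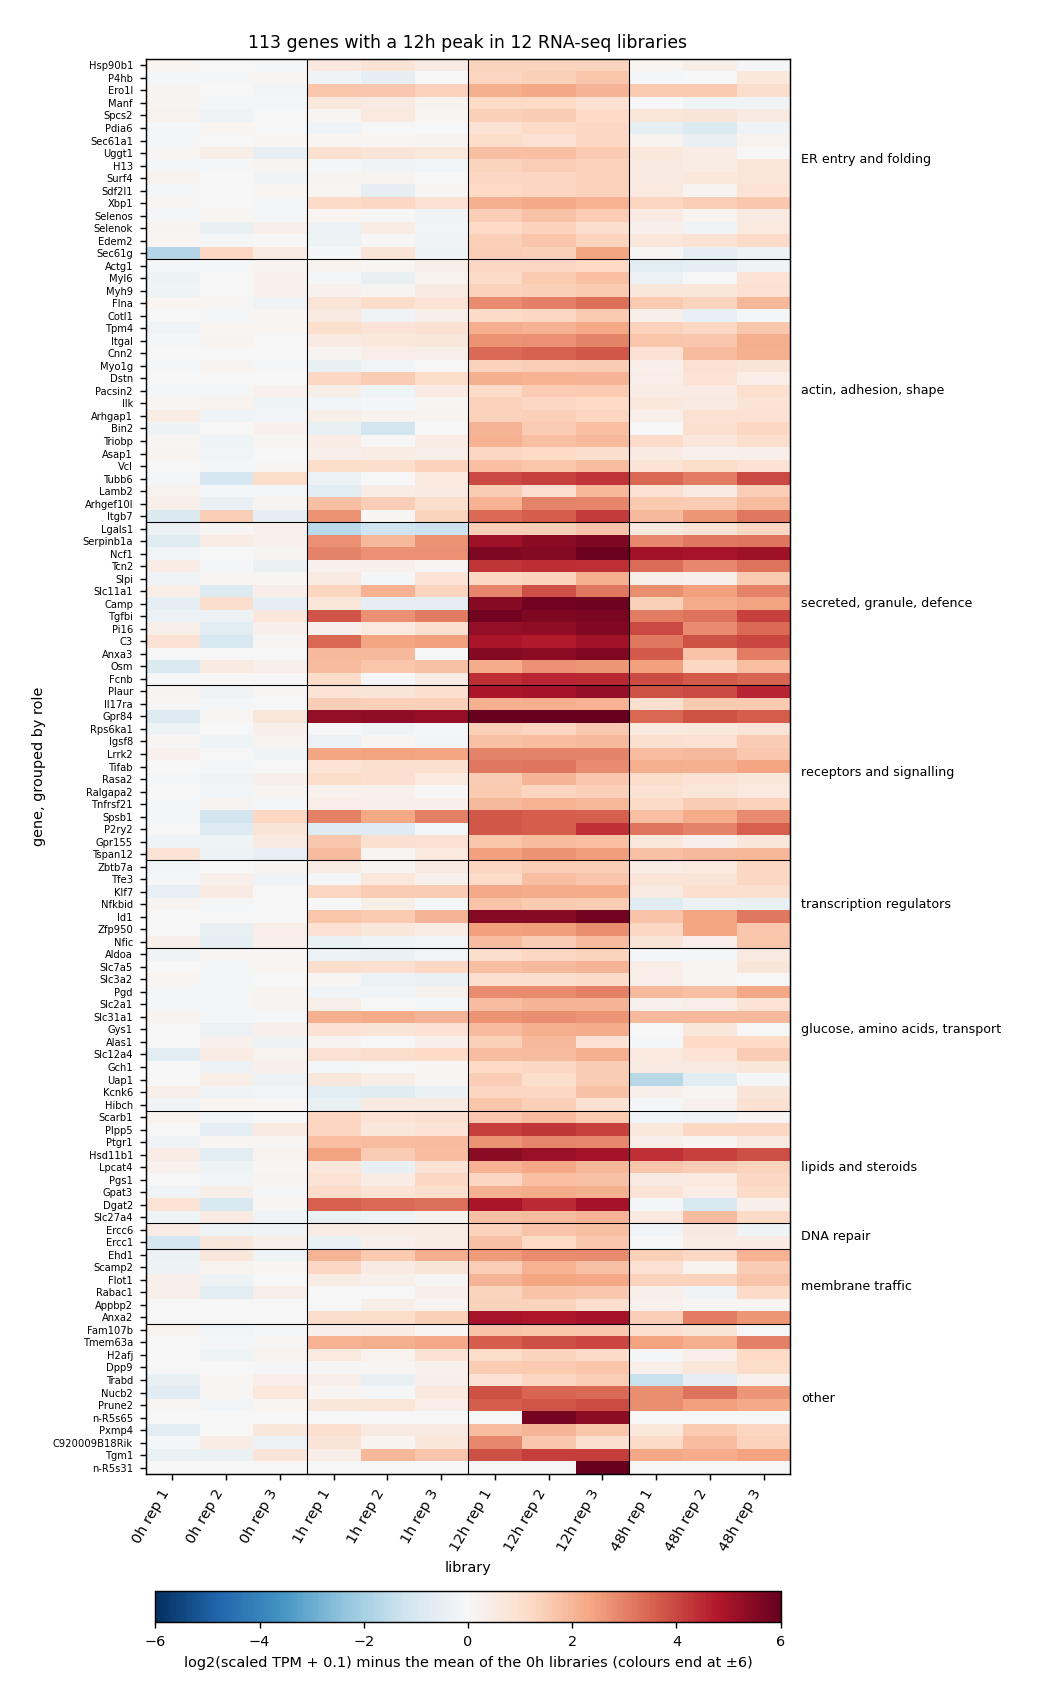
Heat map of 113 of the 116 members (rows, grouped by role) in the 12 RNA-seq libraries (columns, 3 replicates at each of 0h, 1h, 12h and 48h). Colour is log2(scaled TPM + 0.1) minus the mean of the 3 libraries of 0h. The 12h columns are the darkest red in nearly every row, the secreted and granule genes keep more red at 48h than the ER genes, and the rows n-R5s65 and n-R5s31 are coloured in 2 and 1 of the 12h libraries.

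The genes nearest to the limits of the rule had values close to each limit. Just inside the limit on the 0h mean lay Hibch, a mitochondrial enzyme of valine breakdown, with a 12h mean that was 2.02 times its 0h mean plus 0.5, and just outside lay the phosphate transporter gene Slc20a1 with 1.99 times. On the 48h side the laminin gene Lamb2 was inside with 1.5 times its 48h mean, and the tubulin gene Tuba1a outside with 1.49 times. On the 1h side the kinase gene Lrrk2 was inside with 1.51 times its 1h mean and the acetyl-CoA synthetase gene Acss2 outside with 1.48 times. The granule protease gene Prtn3, with a 12h mean of 1.96 scaled TPM, missed only the lowest level, whereas Fcnb passed it with 2.20. In all, 17 genes failed the level alone, 178 the 0h condition alone, 19 the 1h condition alone and 473 the 48h condition alone. The 48h limit is thus the one that separates the members from the largest neighbouring set.

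**Figure D2:**
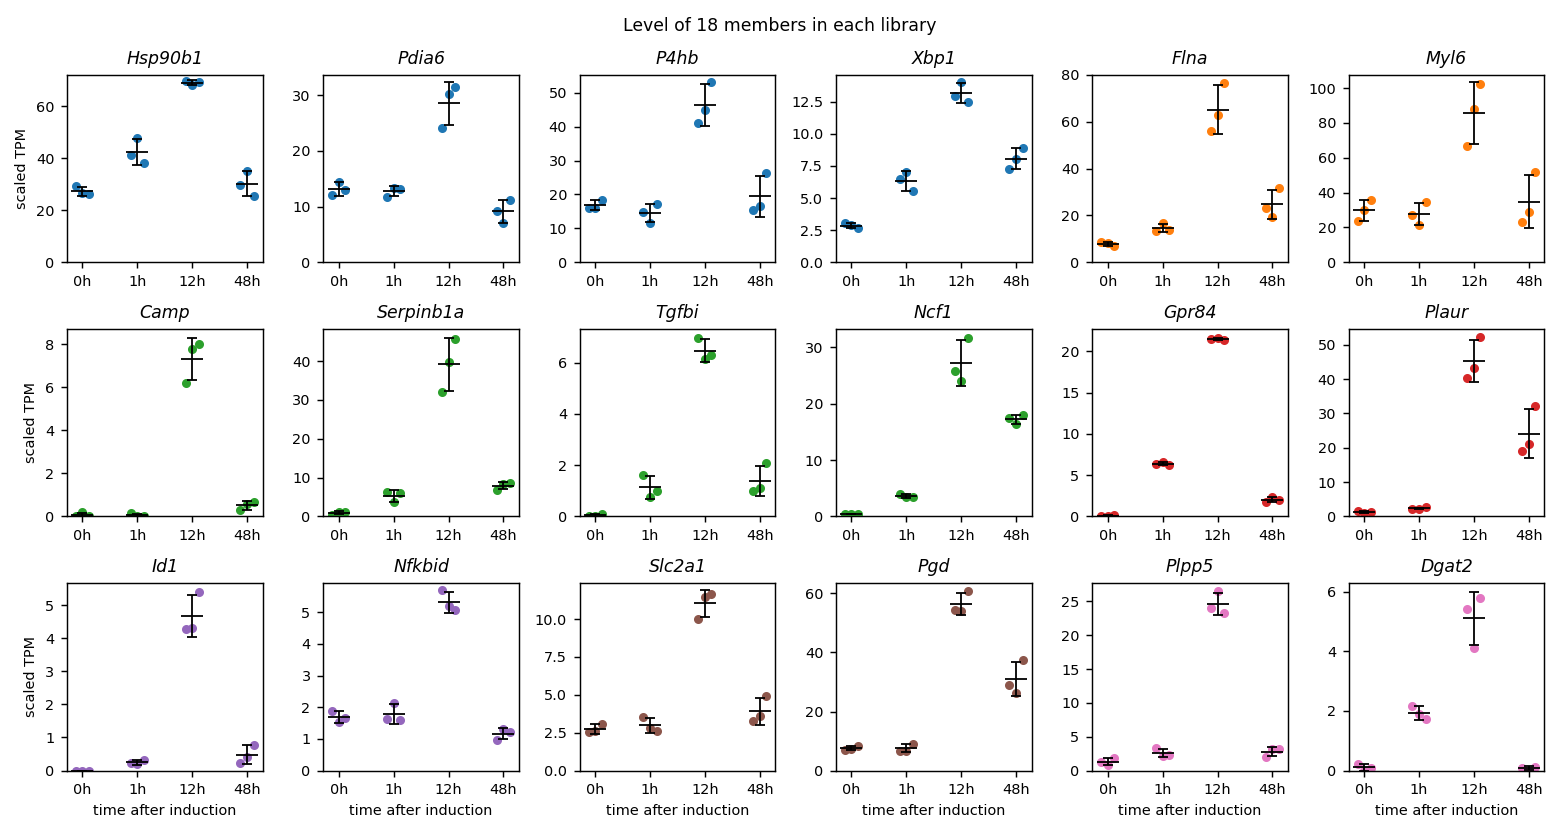
Scaled TPM (vertical axes, from 0) of 18 members in the 3 libraries of each time point (points), with the mean (bar) and SD (whiskers, n = 3). In all 18 panels the 3 points of 12h lie above the other 9; at 48h the means of Pdia6, Dgat2 and Nfkbid were below 0h, and those of Ncf1, Plaur and Pgd stayed well above it.

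The 16 ER members differed among themselves outside the 12h peak that chose them: 8 had a 1h mean above the 0h mean, and 13 a 48h mean above it. They cover the way of a new secretory protein: Sec61a1 and Sec61g of the translocation channel, Spcs2 of the signal peptidase and the signal-peptide peptidase H13 at entry, the chaperones Hsp90b1 and Sdf2l1, the disulfide isomerases P4hb and Pdia6 with their oxidase Ero1l, the glycoprotein folding sensor Uggt1, Edem2, Selenos and Selenok of quality control, the cargo receptor Surf4, the secreted stress protein Manf, and Xbp1, a transcription factor that drives ER genes when folding is under strain. In all 16, the 3 libraries of 12h lay above the other 9. Summed, the group measured 150, 146 and 144 scaled TPM at 0h, 199, 205 and 183 at 1h, 384, 402 and 392 at 12h and 193, 185 and 192 at 48h. The step at 12h is what these genes were chosen for, and nothing is read from its size or from how clear the 12h libraries were. The third 48h library did not stand apart here.

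Hsp90b1, the HSP90 chaperone of the ER, measured 29.4, 26.4 and 26.2 scaled TPM at 0h and 41.0, 47.9 and 38.1 at 1h. It stood at 69.7, 68.1 and 69.4 at 12h and at 29.6, 35.1 and 25.6 at 48h, so its 48h libraries overlapped those of 0h. The change from 0h to 48h was 0.13 ± 0.14 on the log2 scale (SE, 12 libraries in the model, limma adjusted p = 0.466). P4hb, a disulfide isomerase, measured 16.1, 16.1 and 18.5 at 0h, 41.2, 44.9 and 53.3 at 12h and 15.5, 16.6 and 26.4 at 48h. Its 48h values again overlapped those of 0h. Pdia6, a second isomerase, went below its starting level: it measured 12.2, 14.5 and 12.9 at 0h, 24.2, 30.2 and 31.4 at 12h and 9.15, 7.11 and 11.3 at 48h. The 48h libraries were all under the lowest 0h library, a change of -0.54 ± 0.17 (limma adjusted p = 0.0236) that was smaller than the 2-fold limit set for a call.

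Xbp1 and Ero1l were the ER members called higher at 1h, a call being a limma adjusted p under 0.05 with a change of over 2-fold. Xbp1 measured 3.04, 2.89 and 2.66 scaled TPM at 0h, 6.49, 7 and 5.52 at 1h, 13, 14 and 12.5 at 12h and 7.24, 8 and 8.87 at 48h, with no overlap between 0h and any other time. It rose by 1.12 ± 0.14 on the log2 scale at 1h (limma adjusted p = 0.000392) and lay 1.46 ± 0.14 above 0h at 48h (limma adjusted p = 5.32e-06). Ero1l, which feeds oxidizing equivalents to the isomerases, measured 11.2, 10.1 and 8.91 at 0h and 31.6, 31.2 and 26.8 at 1h. It reached 44.8, 49.9 and 41.1 at 12h and was at 30.1, 30.4 and 21 at 48h, and it too was called higher at both times. The remaining 14 were called at neither time. Over all genes tested, 4.05% were called higher and 2.86% lower at 1h than at 0h, and 20.1% and 17.8% at 48h.

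The ER stress response element is a composite element known from promoters of ER chaperone genes, in which the letters CCAAT are followed, after a gap of 9 unspecified bases, by the letters CCACG, and which is read by NF-Y together with ATF6 or XBP1. It was searched on both strands after the members had been seen, in RefSeq windows from 250 bases before to 50 after a gene's start (GRCm38.p6), which were at hand for 90 of the 116 members. Of these, 2 (2.22%) held it, against 0.176% of the windows of 9636 tested genes. Both are among the 14 ER members with a window, and the other 12 windows of that group held no match. Hsp90b1 has a copy 212 bases before the start of its RefSeq transcript and a second, on the opposite strand, at 107 bases. Pdia6 has 1 at 98 bases. The parts of the windows that lie upstream of the annotated transcripts are shown because they carry these copies. They are chr10:86705510-86705664 (minus strand) for Hsp90b1 and chr12:17266479-17266544 (plus strand) for Pdia6, written 5′ to 3′ with the fixed letters of the element in capitals.
Hsp90b1: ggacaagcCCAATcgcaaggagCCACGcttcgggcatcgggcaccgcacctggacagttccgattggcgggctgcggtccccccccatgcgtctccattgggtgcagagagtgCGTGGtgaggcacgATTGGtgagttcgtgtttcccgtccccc
Pdia6: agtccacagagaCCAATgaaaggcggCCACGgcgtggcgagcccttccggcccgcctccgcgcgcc
The shorter core TGACGTG, also tied to XBP1 and ATF6, was in 2 member windows (2.22%) and in 2.95% of all windows. A match is a match of letters only.

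A further 42 genes for ER entry, folding and degradation were listed from outside the members after these had been seen. Of them, 25 had their highest mean at 12h, against 16.8% of all genes tested. Their sum was 415 to 432 scaled TPM at 0h, 408 to 412 at 1h, 604 to 645 at 12h and 423 to 450 at 48h.

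The actin and adhesion genes were the largest group, with 21 members. It holds the cytoplasmic actin Actg1, the filament cross-linker Flna, the myosin chains Myh9 and Myl6, the tropomyosin Tpm4, calponin Cnn2, coactosin Cotl1, destrin Dstn, vinculin Vcl, the integrin-linked kinase gene Ilk and the integrins Itgal and Itgb7. Tubb6, Myo1g, Triobp, Arhgap1, Arhgef10l, Asap1, Pacsin2, Bin2 and Lamb2 make up the rest. Their sum was 231, 242 and 274 scaled TPM at 0h, 308, 279 and 335 at 1h, 711, 745 and 809 at 12h and 292, 297 and 386 at 48h. Here the third 48h library was the highest of the 3, and all 3 were above the highest 0h library. In 19 of the 21 the libraries of 12h lay above the other 9.

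Flna measured 8.5, 8.09 and 6.79 scaled TPM at 0h, 13.5, 16.7 and 13.9 at 1h, 55.9, 63.0 and 76.6 at 12h and 23.4, 19.5 and 31.6 at 48h. It lay 1.64 ± 0.19 above 0h at 48h on the log2 scale (limma adjusted p = 3.09e-05). Cnn2, a calponin, was called at 48h and not at 1h, at 1.83, 1.80 and 1.86 at 0h, 2.03, 2.48 and 2.35 at 1h, 20.5, 22.2 and 25.3 at 12h and 3.47, 7.15 and 8.46 at 48h. Its 12h mean was 12.4 times the 0h mean and 3.56 times the 48h mean. Itgal, the α chain of the integrin LFA-1, measured 3.29, 3.90 and 3.42 at 0h, 23.0, 23.9 and 28.0 at 12h and 11.5, 11 and 16.4 at 48h. These 3 were among the 7 of 21 in the group called higher at 48h than at 0h, against 20.1% of all genes tested. Tpm4, a tropomyosin that stiffens actin filaments, was also among them and measured 9.28, 11.6 and 11.4 at 0h and 22.3, 18.3 and 20.3 at 1h, then 49.1, 45.1 and 54.3 at 12h and 27.9, 25.2 and 33.5 at 48h. Its times did not overlap, and it lay 1.41 ± 0.15 above 0h at 48h on the log2 scale (limma adjusted p = 1.28e-05).

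The most abundant member of all, Actg1, did not follow them. It measured 94.7, 95.1 and 113 scaled TPM at 0h, 118, 109 and 129 at 1h, 234, 240 and 233 at 12h and 65.6, 66.1 and 85.6 at 48h, where all 3 libraries were under every 0h library. The change at 48h was -0.48 ± 0.14 on the log2 scale (limma adjusted p = 0.0121), inside the 2-fold limit. Myl6, a light chain of non-muscle myosin, measured 23.9, 30.1 and 35.8 at 0h, 66.6, 88.2 and 102 at 12h and 23.2, 28.8 and 51.9 at 48h, with 0h and 48h overlapping. Myh9, the heavy chain of non-muscle myosin IIA, measured 22.8, 27.3 and 33 at 0h and 33.1, 30.7 and 40.1 at 1h, then 71.1, 73.7 and 82 at 12h and 44.2, 44.3 and 52.3 at 48h. All its 48h libraries were above the 0h libraries, by less than the 2-fold limit (0.77 ± 0.16 on the log2 scale, limma adjusted p = 0.00181). Dstn, an actin-severing protein, and Vcl, which links actin to adhesions, were called higher at 1h and not at 48h. Dstn measured 4.75, 4.78 and 4.55 at 0h, 11.3, 13.5 and 10.2 at 1h, 21, 20.4 and 19.6 at 12h and 6.14, 8.41 and 6.21 at 48h. Actin and aldolase genes have near-identical copies in the genome, and how the estimation of TPM divides their reads was not tested. Of 30 further actin genes, listed later from outside the members, 27 were tested. Of these, 16 had their highest mean at 12h, against 16.8% of all genes tested, and 7 at 48h. The sum of the list was 1316 to 1419 scaled TPM at 0h and 1175 to 1246 at 1h. It was 2369 to 2635 at 12h and 1796 to 2444 at 48h, so the 48h libraries overlapped those of 12h.

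**Figure D3:**
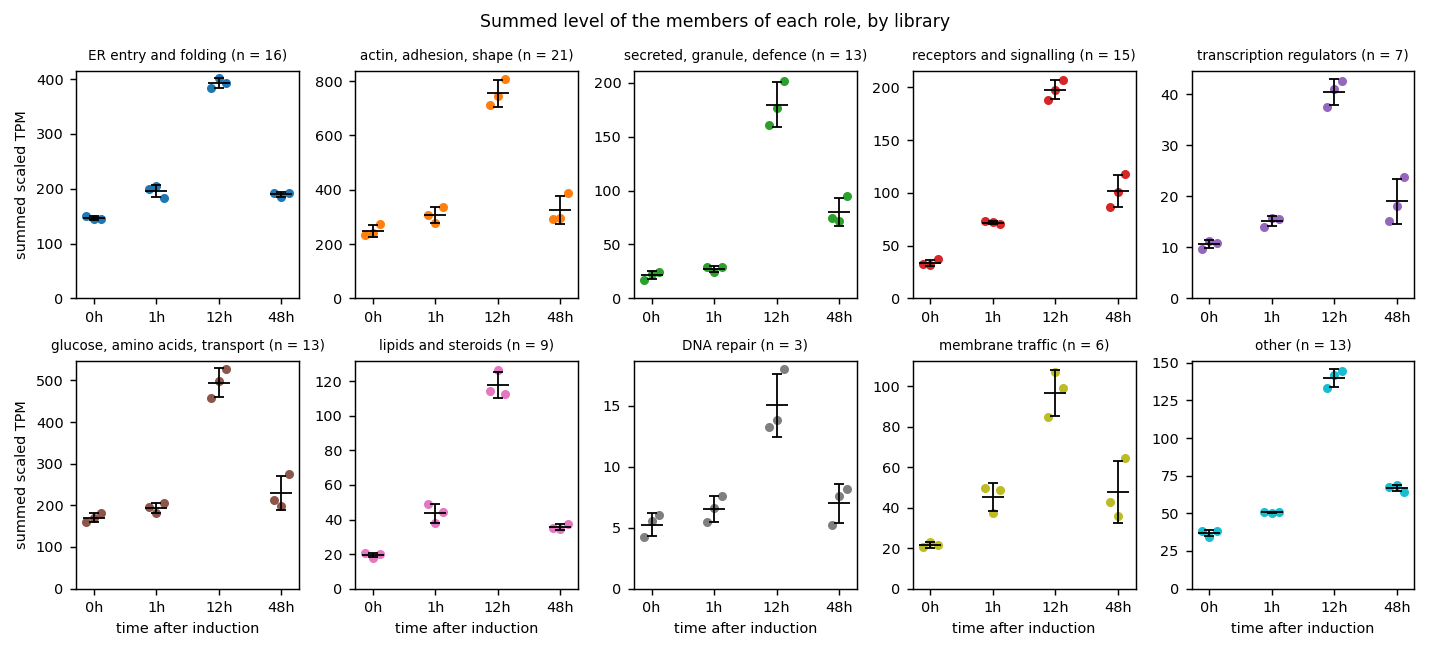
Summed scaled TPM (vertical axes, from 0) of the members of each role in the 3 libraries of each time point (points), with mean (bar) and SD (whiskers, n = 3). All 10 groups peak at 12h because their genes were chosen for it; at 48h the sums of the ER genes lie between 185 and 193 with little spread, and those of the actin group between 292 and 386, the highest of them in replicate 3.

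The 13 secreted, granule and host defence members include Camp, the cathelicidin of neutrophil granules, Fcnb, a ficolin of granules, the protease inhibitors Serpinb1a and Slpi, complement C3, the NADPH oxidase subunit Ncf1, the phagosomal metal transporter Slc11a1, the vitamin B12 carrier Tcn2, Tgfbi of the matrix, Lgals1, Anxa3, Pi16 and the cytokine Osm. The summed level was 17.4, 22.6 and 24.4 scaled TPM at 0h, 29.2, 24.4 and 28.7 at 1h, 160, 177 and 202 at 12h and 74.1, 71.6 and 95.3 at 48h.

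Camp (chr9:109847379-109849617, GRCm38, minus strand) was near 0 outside 12h. It measured 0, 0.20 and 0 scaled TPM at 0h, 0.14, 0 and 0 at 1h, 6.20, 7.76 and 8 at 12h and 0.29, 0.57 and 0.67 at 48h. All 48h libraries were above all 0h libraries, by 2.02 ± 0.50 on the log2 scale (limma adjusted p = 0.00571). The 12h mean was still 14.4 times the 48h mean. Serpinb1a, which inhibits neutrophil elastase, measured 0.47, 1.21 and 1.05 at 0h, 6.19, 3.59 and 6.04 at 1h, 32.1, 39.8 and 45.8 at 12h and 6.85, 8.28 and 8.71 at 48h. Tgfbi measured 0, 0 and 0.11 at 0h, 1.63, 0.75 and 1.00 at 1h, 6.98, 6.13 and 6.30 at 12h and 0.97, 1.1 and 2.08 at 48h. Both were called higher at 1h and at 48h, and every library of those times was under the lowest 12h library.

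Ncf1 kept more of its level. It measured 0.37, 0.45 and 0.49 scaled TPM at 0h, 4.04, 3.45 and 3.48 at 1h, 25.8, 24.0 and 31.8 at 12h and 17.5, 16.4 and 17.9 at 48h, which is 5.03 ± 0.15 above 0h on the log2 scale (limma adjusted p = 1.19e-09). Tcn2 had no call at 1h and measured 1.04, 0.695 and 0.524 at 0h and 0.886, 0.929 and 0.761 at 1h, then 15.8, 17.5 and 17.1 at 12h and 8.22, 6.08 and 7.88 at 48h. C3, the central complement protein, measured 0.262, 0 and 0.107 at 0h and 2.02, 0.909 and 0.995 at 1h, then 5.75, 5.18 and 6.35 at 12h and 1.64, 2.65 and 3.09 at 48h, and was called higher at 1h and at 48h. Fcnb was listed at 0 in all 0h libraries and measured 2.06, 2.31 and 2.23 at 12h and 1.39, 1.20 and 1.02 at 48h. Anxa3, a membrane-binding annexin of neutrophils, was also listed at 0 in all 0h libraries, and measured 0.289, 0.288 and 0 at 1h, 4.38, 4.01 and 4.66 at 12h and 1.2, 0.223 and 0.745 at 48h. Pi16, a secreted peptidase inhibitor family member, measured 0.097, 0 and 0.0953 at 0h and 0.0963, 0.137 and 0.204 at 1h, then 5.88, 6.15 and 7.23 at 12h and 2.33, 1.03 and 1.54 at 48h. The 12h libraries of both stood clear of all others. Lgals1, a galectin, was the only member called lower at 1h: it measured 10.7, 14.9 and 16.2 at 0h, 4.35, 5.92 and 5.63 at 1h, 38, 39 and 44.9 at 12h and 20.7, 24.0 and 32.2 at 48h. The fall at 1h was -1.37 ± 0.20 on the log2 scale (limma adjusted p = 0.00161), with no overlap between the libraries, and was not called in deposited TPM without scaling. Osm, an IL-6 family cytokine whose gene is a STAT5 target, rose at 1h and measured 2.46, 3.55 and 3.36 at 12h, where the lowest library was under the highest 48h library of 2.90.

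Of 19 granule markers of granulocyte-monocyte progenitors and neutrophils on the list, 8 were tested, and Camp and Fcnb were the 2 members among them. Their summed level was 0.738 to 1.02 scaled TPM at 0h, 20.4 to 22.9 at 12h and 45.7 to 66.0 at 48h. Mpo, Ctsg, Ms4a3, Cebpe, S100a9 and Chil3 were at 0 in every library. Of the 8, 4 had their highest mean at 12h, against 16.8% of all genes tested, and 3 at 48h. Camp and Fcnb, which the rule chose for a 12h peak, are among the 4. At 48h 6 of the 8 were called higher than at 0h, against 20.1% of all genes tested. Most of the sum at 48h was Mmp8, the neutrophil collagenase and no member, at 5.97 ± 1.39 scaled TPM at 12h and 51.8 ± 12.5 at 48h (SD, n = 3).

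The C/EBP motif TTGCNNAA was present in 11 of the 90 member windows (12.2%), in 10.5% of the windows of genes that kept their rise and in 8.31% of all tested windows. Fcnb held 2 copies, C3 held 1 at 45 bases before its start, and Plaur, Xbp1, Slpi, Uap1, Ptgr1, P2ry2, Pxmp4, Myl6 and Edem2 held 1 each. Among the 11, 6 were called higher at 48h and 3 at 1h, against 30 and 16 of the 79 members whose window lacked it. Over all genes tested the shares were 20.1% and 4.05%. With 11 genes, nothing is read from this split by motif. The upstream stretches of 4 are given because these members are described here and hold a match: chr2:28084886-28085123 (minus) for Fcnb, chr17:57228137-57228236 (minus) for C3, chr7:24462383-24462482 (plus) for Plaur and chr11:5520451-5520640 (plus) for Xbp1. The fixed letters of the motif are in capitals, on whichever strand it lies, and for Plaur those of an AP-1 motif (TGANTCA) as well.
Fcnb: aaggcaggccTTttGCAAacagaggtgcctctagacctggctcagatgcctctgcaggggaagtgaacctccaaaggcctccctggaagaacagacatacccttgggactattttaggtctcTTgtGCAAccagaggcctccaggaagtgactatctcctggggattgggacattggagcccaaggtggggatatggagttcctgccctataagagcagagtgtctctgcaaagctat
C3: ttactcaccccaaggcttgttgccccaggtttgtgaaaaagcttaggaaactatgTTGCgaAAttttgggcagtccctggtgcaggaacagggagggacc
Plaur: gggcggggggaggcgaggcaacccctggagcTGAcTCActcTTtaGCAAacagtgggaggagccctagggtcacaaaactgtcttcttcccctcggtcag
Xbp1: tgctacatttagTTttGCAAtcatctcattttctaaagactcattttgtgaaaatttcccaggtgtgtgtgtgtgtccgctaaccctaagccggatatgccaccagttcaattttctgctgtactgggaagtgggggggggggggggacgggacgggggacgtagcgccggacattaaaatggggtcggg
In Plaur the AP-1 motif began 69 and the C/EBP motif 59 bases before the start. The AP-1 motif was in 7.78% of member windows and 4.92% of all.

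Of the other motifs searched, the share in member windows and in all windows was 27.8% and 26.8% for GAGGAA (ETS/PU.1), 71.1% and 62.6% for GGGCGG (GC box), 41.1% and 39.7% for CCAAT, 8.89% and 7.03% for TTCNNNGAA (STAT), and 7.78% and 7.56% for TATAAA. The E-box letters CACGTG were in 7.78% and 10.2%, GAAANNGAA (interferon response) in 4.44% and 7.66%, TGACGTCA (CRE) in 2.22% and 3.31% and GGGANTTCC (NF-kB) in 1.11% and 2.40%. Every ER stress element also counts as a CCAAT match, and the STAT, ETS and interferon motifs can overlap. A ratio of observed to expected CpG above 0.6 was found in 62.2% of member windows, in 58.7% of those of genes with a kept rise and in 81.1% of those of tested genes with a 12h mean of at least 2. The members and the kept-rise genes thus lay within a few points of each other, and these shares carry no test.

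Receptors and signalling proteins made up 15 members, all with the 3 libraries of 12h above the other 9. Gpr84, a receptor for medium-chain fatty acids, had the largest rise at 1h of all members. It measured 0, 0.08 and 0.18 scaled TPM at 0h, 6.38, 6.62 and 6.20 at 1h, 21.6, 21.7 and 21.4 at 12h and 1.74, 2.30 and 2.01 at 48h, so the times did not overlap and the replicates were close. It rose by 5.26 ± 0.29 on the log2 scale at 1h (limma adjusted p = 2.68e-06), and 39.5% of its exon bases overlap a predicted gene, whose reads this library type, which does not mark strand, cannot tell apart. Plaur, the urokinase receptor, rose later: 1.45, 1.06 and 1.31 at 0h, 2.30, 2.20 and 2.62 at 1h, 40.2, 43.3 and 52.1 at 12h and 18.9, 21 and 32.2 at 48h. It lay 4.11 ± 0.20 above 0h at 48h (limma adjusted p = 4.06e-08).

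Il17ra, the common chain of IL-17 receptors, measured 10.4, 9.42 and 9.71 scaled TPM at 0h, 27.4, 27.0 and 26.8 at 1h, 42.9, 44.5 and 41.9 at 12h and 19.2, 29.4 and 29.5 at 48h. The death receptor gene Tnfrsf21 was lower, at 0.55 to 0.70 at 0h and 2.61 to 2.86 at 12h. Lrrk2, a kinase expressed in myeloid cells, was among the earliest, at 1.24 to 1.77 at 0h, 8.01 to 8.40 at 1h, 12.2 to 12.4 at 12h and 4.71 to 5.90 at 48h. Rps6ka1, a kinase of the MAPK route, had a 12h mean of 14.9 and no call at either time. Further members here were P2ry2, Tspan12, Igsf8, Gpr155, Rasa2, Spsb1, Ralgapa2 and Tifab. In all, 10 of the 15 were called higher at 48h and 5 at 1h, against 20.1% and 4.05% of all genes tested.

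The 7 transcription regulators were lower in level, with 12h means between 2.85 and 10.2 scaled TPM. Id1, an inhibitor of E proteins, which B cell precursors depend on, was listed at 0 in all 3 libraries of 0h and measured 0.22, 0.20 and 0.32 at 1h, 4.29, 4.32 and 5.41 at 12h and 0.223, 0.418 and 0.785 at 48h. It was called higher at 1h and 48h, at levels below 1 scaled TPM. Nfkbid, an IκB protein of the nucleus, measured 1.88, 1.53 and 1.64 at 0h, 1.63, 2.14 and 1.59 at 1h, 5.69, 5.19 and 5.06 at 12h and 0.97, 1.31 and 1.21 at 48h, where all libraries were under 0h (-0.50 ± 0.18, limma adjusted p = 0.0362). Klf7 rose at 1h and was called at that time alone, with 0.90, 1.88 and 1.29 at 0h, 3.27, 3.94 and 3.97 at 1h, 6.75, 6.54 and 6.47 at 12h and 1.94, 2.68 and 2.62 at 48h. As in Gpr84, a large part of its exon bases (39.4%) overlaps predicted genes, whose reads cannot be told apart. Zfp950 was called at 48h, and Tfe3, Zbtb7a and Nfic had no call.

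Of 54 haematopoietic transcription factors on the list, 42 were tested, Id1 was the 1 member, and 5 had their highest mean at 12h against 23 at 48h. None of 22 AP-1 and immediate early genes, 19 MAPK feedback genes, 32 chemokines or 26 interferon response genes was a member. Nfkbid stood alone among 21 NF-kB pathway genes, of which 16 were tested and 7 were called higher at 48h than at 0h. Among 53 cytokine and chemokine receptors the members were Il17ra and Tnfrsf21, and 21 of the 33 tested had their highest mean at 48h. Since 116 of the 16212 genes tested were members, lists of this size hold few by that share alone, and nothing is read from these counts.

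The group of glucose, amino acid and small-molecule metabolism had 13 members. Slc2a1, the glucose transporter GLUT1, measured 2.52, 2.63 and 3.10 scaled TPM at 0h, 3.54, 2.83 and 2.60 at 1h, 10.0, 11.4 and 11.6 at 12h and 3.25, 3.58 and 4.94 at 48h. Aldoa, a glycolytic enzyme, measured 69.6, 82.7 and 87.1 at 0h, 166, 190 and 203 at 12h and 76.6, 74.2 and 117 at 48h. Neither was called at 1h or 48h. Pgd of the pentose phosphate pathway, which supplies NADPH, kept more of its level, with 7.02, 7.26 and 8.30 at 0h, 54.4, 54.1 and 60.9 at 12h and 29.1, 26.3 and 37.4 at 48h (2.01 ± 0.16 above 0h on the log2 scale, limma adjusted p = 1.76e-06).

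Slc7a5 and Slc3a2 encode the 2 chains of the LAT1 amino acid transporter. Slc7a5 measured 29.4, 28.1 and 33.2 scaled TPM at 0h, 62.2, 59.2 and 70.4 at 1h, 106, 116 and 122 at 12h and 39.2, 31.2 and 50.6 at 48h, a rise of 1.08 ± 0.17 at 1h on the log2 scale (limma adjusted p = 0.00198). Slc3a2 measured 38.0, 33.6 and 34.7 at 0h, 37.3, 27.6 and 27.1 at 1h, 70.8, 73.8 and 77.8 at 12h and 46.1, 37.9 and 36.5 at 48h, with no call. Slc31a1, the copper importer, was called at both times, and Slc12a4 at 1h. Gys1, the glycogen synthase of muscle and most other tissues, measured 1.79, 1.39 and 2.24 at 0h and 3.29, 3.12 and 3.32 at 1h, then 6.94, 8.43 and 8.63 at 12h and 1.78, 2.93 and 1.81 at 48h. Its 48h libraries overlapped those of 0h. Gys1, Alas1, Gch1, Hibch, Uap1 and Kcnk6 had no call.

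Of the 24 tested genes of the hypoxia and glycolysis list 13 had their highest mean at 12h, against 16.8% of all genes tested, and 4 at 48h. The 13 and the sum include its members Slc2a1, Aldoa and Ero1l, which the rule chose for a 12h peak. The sum was 374 to 410 scaled TPM at 0h, 338 to 363 at 1h, 653 to 730 at 12h and 363 to 447 at 48h. Aldoa alone had a mean of 79.8 at 0h and 186 at 12h. At 48h 7 of the 24 were called higher and 4 lower than at 0h, against 20.1% and 17.8% of all genes tested. The ATF4 target list did not share this course, with 3 of 22 tested genes highest at 12h and 14 called lower at 48h. Its members Slc7a5 and Slc3a2 are among the 3. Cholesterol synthesis had 9 of 23 tested genes highest at 12h and no member, and 9 were called lower at 48h.

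Lipid and steroid metabolism had 9 members, among them Plpp5, the gene with the largest 12h excess of all 116. Plpp5 (chr8:25720037-25724887, GRCm38, plus strand), a phosphatase of lipid phosphates, measured 1.25, 0.84 and 1.91 scaled TPM at 0h, 3.29, 2.11 and 2.29 at 1h, 24.0, 26.5 and 23.3 at 12h and 2.01, 3.16 and 3.18 at 48h. Its 12h mean was 7.49 times the highest other mean plus 0.5. Dgat2, which makes triglycerides, rose at 1h by 3.44 ± 0.43 on the log2 scale (limma adjusted p = 0.000482) and its 48h libraries overlapped those of 0h. It measured 0.23, 0 and 0.10 at 0h, 2.17, 1.90 and 1.73 at 1h, 5.42, 4.10 and 5.79 at 12h and 0.08, 0 and 0.13 at 48h.

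Ptgr1, which inactivates prostaglandins and leukotriene B4, and Scarb1, the HDL receptor, were likewise called higher at 1h and not at 48h. Ptgr1 measured 2.1, 2.67 and 2.52 scaled TPM at 0h, 8.78, 9.06 and 9.31 at 1h, 16.4, 19.3 and 18.6 at 12h and 3.09, 2.73 and 3.62 at 48h. Scarb1 measured 10.5, 8.27 and 8.92 at 0h, 22.4, 16.6 and 17.7 at 1h, 28.2, 34.3 and 27.2 at 12h and 8.24, 7.85 and 9.64 at 48h. Hsd11b1, which regenerates active glucocorticoid, was instead called higher at both times, at 0.174 to 0.495 at 0h, 1.12 to 2.17 at 1h, 13.7 to 18.3 at 12h and 6.23 to 8.94 at 48h. Gpat3 and Pgs1 had no call, and Plpp5, Lpcat4 and Slc27a4 were called at 48h alone.

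The smaller groups and the remainder followed the same outline. Among 6 genes of membrane traffic, Ehd1, which recycles endosomes, was the most abundant, at 4.82 to 9.78 scaled TPM at 0h, 18.6 to 28.2 at 1h, 36.7 to 45.1 at 12h and 14.9 to 26.5 at 48h, and was called higher at both times. Anxa2 was listed at 0 in all 0h libraries and measured 2.97, 2.79 and 3.13 at 12h. Scamp2, Rabac1, Flot1 and Appbp2 were the other 4. Of the 3 DNA repair genes none was called, and Ercc1 and Ercc6 had 12h means of 4.52 and 5.31. Outside the roles stood, among others, Fam107b, Tmem63a, Tgm1, Trabd, Prune2, Dpp9, Nucb2, H2afj, Pxmp4, the pseudogene C920009B18Rik and 2 ribosomal entries. Fam107b, the most abundant of these, measured 22.6, 17.5 and 18.6 at 0h and 23.9, 26.1 and 20.9 at 1h, then 62.9, 62.5 and 59.1 at 12h and 39.2, 33.2 and 19 at 48h, and the third 48h library was within the range of 0h. Tmem63a, a membrane channel protein, measured 1.17, 1.05 and 1.19 at 0h and 5.1, 5.52 and 5.81 at 1h, then 15.1, 18.1 and 19.6 at 12h and 6.41, 5.48 and 9.83 at 48h, and was the 1 gene outside the roles called higher at both times.

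Some members rest on 1 or 2 libraries. The 5S ribosomal RNA entry n-R5s65 was at 0 in 10 libraries and at 5.30 and 3.97 scaled TPM in replicates 2 and 3 of 12h, and n-R5s31 was at 0 in all but 1, with 6.12 in replicate 3 of 12h. The libraries were depleted of ribosomal RNA. In C920009B18Rik the first 12h library held 3.79 and the others 1.55 and 0.93, and in H2afj the third 48h library, at 12.5, lay above 2 of the 12h libraries. Leaving out 1 library at a time, 67 members met the rule in every case and 49 were lost in at least 1. Exons of 39 members overlap another gene, by 89.7% of the exon bases in Ilk, 39.4% in Klf7, 37.4% in Gpat3 and 25.5% in Vcl.

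The changes from 0h at 1h and 48h were tested with limma on log2(scaled TPM + 0.1) over 16212 genes, and a gene was called where its p, adjusted by Benjamini and Hochberg's method, was under 0.05 and the log2 change exceeded 1 either way. The rule never compares these times with each other, but it reads their libraries, and it asks for a wider margin over 0h than over 1h and 48h, so members can lie above 0h at those times more easily than below it. At 48h, 47 of the 116 members (40.5%) were called higher than at 0h, against 20.1% of all genes tested, and none was called lower, against 17.8%. Without the fold limit 75 were higher and 3 lower, the 3 being Actg1, Pdia6 and Nfkbid. The median change was 0.83 for the members, 2.84 for the 473 genes with a kept rise and 0.09 for all genes tested. Of those 473, 452 were called higher than at 0h, which the values that chose them favour. By role, 11 of 13 secreted and granule genes and 10 of 15 receptors and signalling genes were called higher, compared with 7 of 21 in the actin group, 2 of 13 in small-molecule metabolism and 2 of 16 in the ER group.

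**Figure D4:**
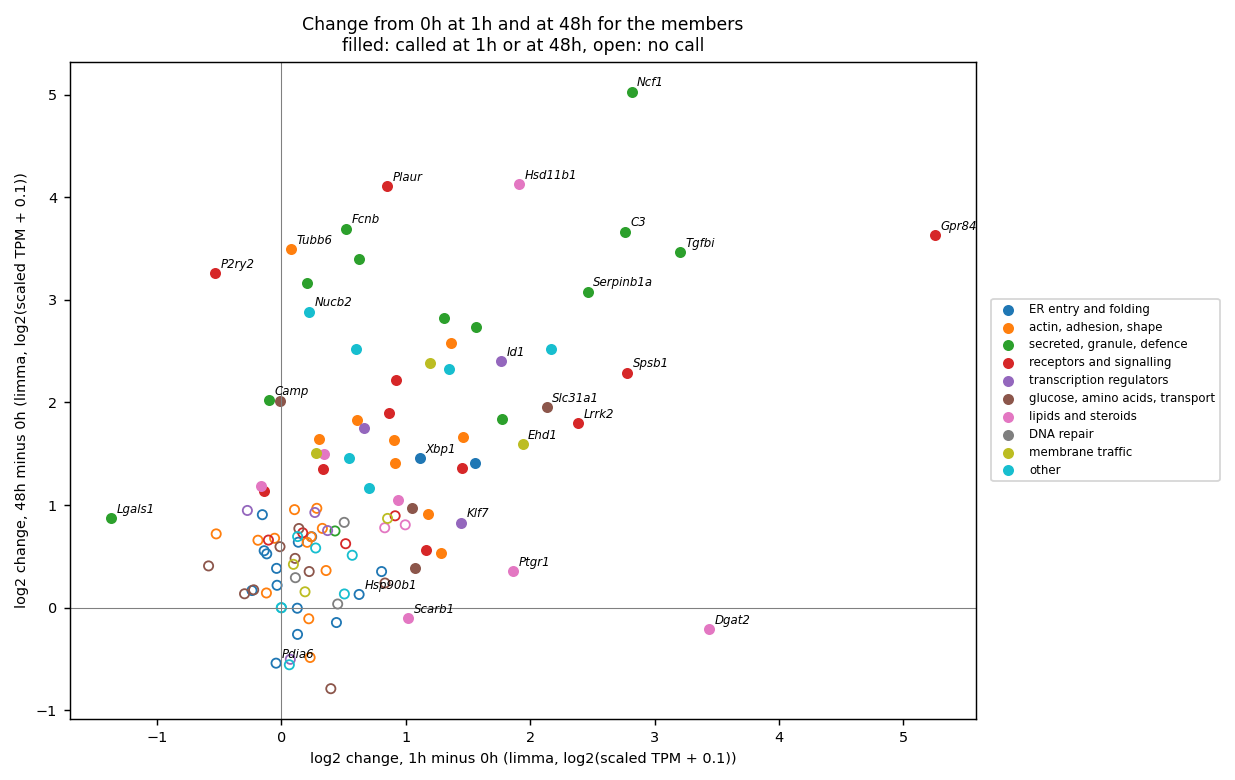
Log2 change from 0h at 1h (horizontal axis) and at 48h (vertical axis) for each member, on log2(scaled TPM + 0.1), coloured by role; filled points were called at 1h or 48h and open points at neither. Gpr84 lies farthest right at 5.26, Ncf1 highest at 5.03, Lgals1 farthest left at -1.37, and the ER genes other than Xbp1 and Ero1l lie between -0.54 and 0.91 at 48h.

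At 1h, 27 members (23.3%) were called higher than at 0h, against 4.05% of all genes tested, and 1, Lgals1, was called lower, against 2.86%. Of the 473 kept-rise genes, 97 were called higher at 1h than at 0h. The median change was 0.41 for the members, 0.43 for the kept-rise genes and 0.01 for all genes. The largest rises at 1h were those of Gpr84, Dgat2, Tgfbi, Ncf1 and Spsb1, between 2.78 and 5.26 on the log2 scale. At 48h the largest were those of Ncf1, Hsd11b1, Plaur, Fcnb and C3, between 3.66 and 5.03. Of the 116, 18 were called higher at both times, 29 at 48h alone, 9 at 1h alone and 59 at neither, the remaining 1 being Lgals1. The 9 were Dgat2, Ptgr1, Klf7, Dstn, Vcl, Gpr155, Slc7a5, Slc12a4 and Scarb1. In deposited TPM without scaling the median of all genes moved to 0.59 at 1h and -0.18 at 48h, and the members lay 0.43 and 0.61 above these medians, compared with 0.41 and 0.74 after scaling. Over all genes, 656 were called higher and 463 lower at 1h and 3264 and 2889 at 48h. In deposited TPM these splits were 2746 and 178 at 1h and 2217 and 3793 at 48h, and in TPM rescaled without the 20 most abundant genes 731 and 306 at 1h and 2992 and 3035 at 48h. The members called higher were then 53 at 1h and 39 at 48h in deposited TPM, and 36 and 46 after rescaling.

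The position of the members was not used by the rule. With a limit of 100 kb between gene starts, 2 pairs were neighbours: Lgals1 and Triobp on chromosome 15, 21 kb apart, and H13 and Id1 on chromosome 2, 66.8 kb apart. The courses within a pair were not alike. Lgals1 fell at 1h whereas Triobp measured 2.54 to 3.32 scaled TPM at 0h and 2.94 to 4.18 at 1h, and Id1 was listed at 0 in uninduced cells where H13 measured 6.11 to 7.51 scaled TPM. A contact between the H13 and Id1 promoter fragments was on the lists of 0h, 12h and 48h, and it was the only listed contact between promoters of 2 different members.

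Promoter contacts were counted for the 108 members with a captured fragment at a transcription start site. A contact was a pair of such a fragment and a fragment listed with it at that time. A partner listed with several captured fragments of a gene was thus counted for each. The lists have no replicates, and these counts are a description. The mean was 13.8 contacts per member at 0h and 15.3 at 1h, then 13.9 at 12h and 11.9 at 48h. For 5596 tested genes with a 12h mean of at least 2 it was 14.2, 14, 12.7 and 13, and for 389 genes with a kept rise 12.0, 13.2, 13.6 and 14.8. The mean of the members was thus highest at 1h and lowest at 48h, whereas the mean of the kept-rise genes went up at each time. The medians followed this only in part. They were 9.5, 10.5, 10.5 and 8 for the members and 7, 9, 10 and 9 for the kept-rise genes. For the tested genes with a 12h mean of at least 2 they were 9, 9, 8 and 8. The lists as a whole held 138769, 137836, 131598 and 144072 contacts, so the fall of the members at 48h was set against the longest list.

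A contact count highest at 12h was found for 20 of 108 (18.5%), compared with 18% of kept-rise genes and 13.9% of tested genes with a 12h mean of at least 2, whereas 32 members (29.6%) had most contacts at 1h, compared with 19.3% and 23.3% of those genes. Of the 1498 member contacts at 12h, 56.5% were already listed at 0h, 57.2% were listed at 48h, 37.7% at all 4 times and 18.1% at 12h alone. In the kept-rise genes 51.3% of the 12h contacts were listed at 0h and 64.7% at 48h. At 48h, 17.9% of member contacts were on that list alone, against 26.2% for kept-rise genes and 21.5% for genes with a 12h mean of at least 2.

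**Figure D5:**
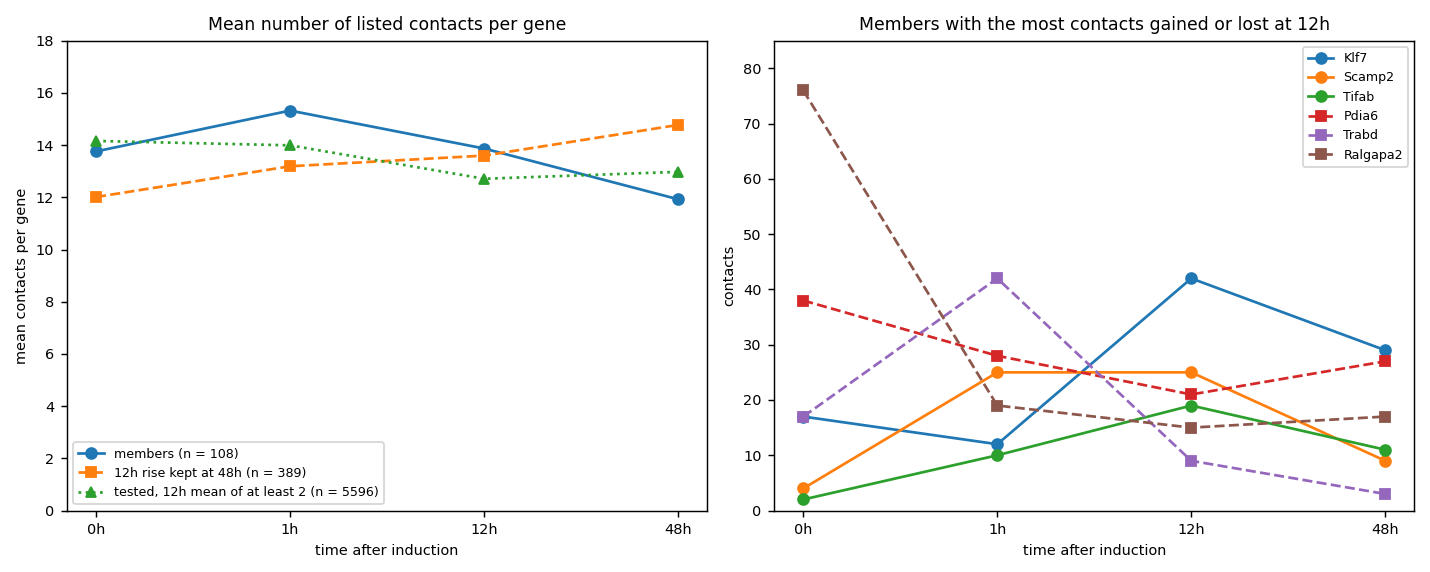
Left, mean number of listed promoter contacts per gene at each time for the members, the genes whose rise was kept and the tested genes with a 12h mean of at least 2; right, contacts of the 3 members with the most gained (solid) and the 3 with the most lost (dashed) at 12h against the mean of the other times. Each time has 1 merged list and no error bar; the member mean peaks at 15.3 at 1h and ends at 11.9 at 48h, and Klf7 peaks at 42 at 12h.

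Single members differed widely. Klf7 had 17 contacts at 0h and 12 at 1h, then 42 at 12h and 29 at 48h, of which 14 were on the 12h list alone, and 32 of its 42 contacts at 12h lay 100 to 350 kb upstream of the gene, as against 12 at 0h. Its RNA was called higher at 1h, when its contacts were fewest. Scamp2 had 4, 25, 25 and 9 contacts, and Tifab, a regulator of Toll-like receptor signalling, 2, 10, 19 and 11, with an RNA level of 1.22 to 1.30 scaled TPM at 0h, 2.32 to 2.57 at 1h, 9.54 to 12.4 at 12h and 5.97 to 6.85 at 48h. In Tifab the order of the times was the same in contacts and RNA. Ralgapa2 went the other way, from 76 contacts at 0h to 19, 15 and 17, while its RNA measured 1.49 to 1.89 at 0h and 4.22 to 5.18 at 12h. Pdia6 had 38, 28, 21 and 27, and Trabd 17, 42, 9 and 3, so that these 3 had fewer contacts at their RNA peak than at 0h. Scamp2 and Ralgapa2 were each counted over 2 captured fragments. Scamp2, Trabd and Ralgapa2 each share a captured fragment with another gene, so their contacts cannot be assigned to them alone.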

How the data were processed

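RNA was measured in 12 rRNA-depleted, non-directional libraries, 3 for each time. The authors trimmed reads with Trim Galore 0.6.2, mapped them to mm10 with HISAT2 2.1.0, merged technical replicates and deposited TPM from RSEM, with no counts used here and so no depth. In Promoter Capture Hi-C, CHiCAGO contacts above a cut-off of 5 were called by the authors on 2 merged replicates per time. A CHiCAGO score stands in the 0h file as deposited, whereas the later 3 files give whole numbers whose unit is not given in the sources used here, and only which fragments are listed was used. Hi-C was not analysed here.

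TPM were divided by median-of-ratios size factors from 11246 genes above 0 in all 12 libraries. limma 3.58.1 (R 4.3.3; all libraries in 1 model, eBayes with a trend) was run on genes whose mean reached 0.1, using log2(scaled TPM + 0.1), after the code had been tested on simulated data, with p adjusted by the Benjamini-Hochberg method over all genes tested. Changes understate low genes because of the pseudocount. Other steps used Python 3.11.15, numpy 2.4.6 and pandas 2.3.3. Contacts were counted per gene over the captured fragments that hold a start site. Groups came from the labels. The members and lists were chosen with earlier results of these data known. Genes were named by highest 12h level, largest 12h excess, fixed lists, largest changes at 1h and 48h, contacts gained or lost, neighbourhood and distance from the limits. Roles, and all other genes named, were chosen after their values were seen. Alternatives were other scalings, pseudocounts, fold limits, left-out libraries, a replicate block, contact tolerances and a shorter promoter window. Values of 3 members are not reported here singly; they stay in all counts and sums.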

Additional observations from a re-analysis of the deposited data

How the results depend on the processing

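The number of members depended on scaling and limits: 327 genes met the rule in TPM as deposited (96 of them among the 116), 174 after rescaling without the 20 most abundant genes (109 shared), 153 on medians (99 shared) and 40 with a limit of 2 times the 1h and 48h means. Leaving out 1 library at a time gave 102 to 154, the highest without replicate 3 of 48h.

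Members called higher at 48h numbered 47; a pseudocount of 1 gave 30, no fold limit 75 and a log2 limit of 2 gave 25. Members called lower at 48h numbered 0, with 1 in deposited TPM and 3 without a fold limit. At 1h the 27 called higher became 53 in deposited TPM, 17 with a pseudocount of 1 and 10 with a log2 limit of 2, and the 1 called lower became 0 in deposited TPM and 0 with a log2 limit of 2. With 1 library left out the counts were 45 to 53 and 0 to 1 at 48h, and 23 to 28 and 1 to 1 at 1h. With the replicate number as a block they were 47, 0, 27 and 1. Same-numbered libraries did not deviate together in every pair, so the numbers were not read as a pairing. The r between times was -0.01 to 0.06 in replicate 2 and 0.02 to 0.11 in replicate 1. In replicate 3 it was positive in every pair, from 0.08 to 0.26, and the cause was not tested. Of 5094 single-gene alternatives, 4923 kept the side of the threshold, 95 lost the call and 76 gained it. In 0 did the direction reverse where either result was called. A change of direction without a call in either was counted as kept.

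The mean contact change from 0h to 12h was -0.21 for members that share no captured fragment with another gene, against 0.11. Contacts listed at 12h alone fell to 8.61% when a contact within 10 kb counted as the same. In the 100 bases before the start, the C/EBP motif was in 3.33% of member windows (2.30% of all windows), AP-1 in 5.56% (1.56%), ETS in 4.44% (9.07%), the E-box in 2.22% (4.54%), the GC box in 56.7% (45.4%), CCAAT in 30% (23.8%) and TATA in 2.22% (2.46%), so that ETS, above the share of all windows in the full window, lay below it here, as did TATA. The search for the ER stress element and the TGACGTG core was added after the data were seen. The cause of these shifts was not tested. TPM hold no depth, so counting error cannot be given, and contact lists have no replicates.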
